A study of Rattus norvegicus with 24 samples.

Results

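The 10 genes described here encode RNA-binding proteins that are best known from neurons: the 4 ELAV-like genes Elavl1 to Elavl4, the 3 RBFOX genes Rbfox1 to Rbfox3, Nova1 and Nova2, and Celf4. They were chosen by name. A locus of the deposited table counted as a member if its gene name, or any of the names joined in it, equalled a member's symbol. All 10 genes had exactly 1 such locus among the 26641 named loci of 42334 loci in all, and all 10 passed the filter on low values in both brain areas. Nova1 is written in upper case in the deposited annotation and was matched without regard to case. The Celf4 locus is joined with a second gene (ENSRNOG00000049802), so its counts cannot be assigned to Celf4 alone.

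Messenger RNA was sequenced from perilesional cortex and ipsilateral thalamus of adult male Sprague-Dawley rats at 3 months after surgery. Of these, 6 rats had a traumatic brain injury (TBI) by lateral fluid percussion, in which a pulse of fluid strikes the intact dura through an opening in the left side of the skull. The other 6 rats were sham-operated, with the same anesthesia and surgery but no pulse. Both areas came from the same rats, which gave 4 groups of 6 libraries, and each library was 1 rat. The injured rats were selected for signs of chronic inflammation around the lesion, so they stand for that form of the injury rather than for all injured rats.

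RNA-binding proteins decide which exons enter an mRNA, how long it lasts and where in the cell it is translated. ELAV-like proteins bind AU-rich and U-rich stretches, mostly in mRNA tails, and stabilize their targets or favor their translation. Elavl1 (HuR) is made in nearly every cell type, whereas Elavl2, Elavl3 and Elavl4 (HuB, HuC and HuD) are largely neuronal. RBFOX proteins are splicing regulators, and the protein of Rbfox3 is the antigen NeuN, which is widely used to count mature neurons. Nova1 and Nova2 regulate the splicing of synaptic mRNAs, and Celf4 binds the mRNAs of synaptic and ion channel proteins in excitatory neurons.

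The values are fragments per locus after the authors had scaled each library to a common size, called normalized counts here. The libraries held 30568927 to 54608922 fragments. The lowest value of any member in any library was a normalized count of 1211, and the coefficient of variation within a group was 3.91% to 19.2%. Marker genes of the areas followed the labels: in sham rats all 6 thalamus genes were higher and all 6 cortex genes were lower in the thalamus. Choroid plexus markers varied widely within groups, with a summed normalized count from 570.1 to 106672 among the sham thalamus libraries. Cell type markers moved with injury in both areas. Of 15 pan-neuronal markers, 9 fell in the cortex and 13 in the thalamus, and 0 rose in either area. The summed level of these 15 was 545134 to 571560 in sham cortex and 413741 to 509158 in TBI cortex, and it was 444261 to 512287 in sham thalamus and 291882 to 370046 in TBI thalamus. Markers of excitatory and inhibitory neurons also fell, 2 of 4 and 4 of 7 in the cortex and 3 of 4 and 6 of 7 in the thalamus. Of 14 microglia markers, 13 rose in the cortex and 14 in the thalamus. Their sum was 20820 to 23082 in sham cortex against 29515 to 35445 in TBI cortex, and 22732 to 30685 in sham thalamus against 47852 to 59858 in TBI thalamus. Of 9 astrocyte markers, 6 rose in each area and 1 fell in the cortex. Of 8 oligodendrocyte markers, 3 rose in the cortex and 0 in the thalamus, of 2 precursor markers 2 and 1 rose, of 6 endothelial markers 1 and 2 rose, and 0 of 6 choroid plexus markers changed in either area. The endothelial count in the cortex was near the share of all loci. In bulk tissue, fewer neurons and less of an mRNA per neuron cannot be told apart, and this holds for every change given here.

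Promoter sequences were available from RefSeq (build GRCr8) for 7 of the 10 members, as the 250 bases before and 50 after the annotated start of the gene. They are shown for Elavl1, Elavl2 and Elavl4, because Elavl2 and Elavl4 varied together and Elavl1 did not pass the injury test, and for Nova1 and Nova2, of which only Nova1 passed it in the cortex. Each is given 5′ to 3′ on the strand of the gene, and capitals mark each GGGCGG box (the Sp1 motif) on either strand.
Elavl1, chr12:7482576-7482875, minus strand: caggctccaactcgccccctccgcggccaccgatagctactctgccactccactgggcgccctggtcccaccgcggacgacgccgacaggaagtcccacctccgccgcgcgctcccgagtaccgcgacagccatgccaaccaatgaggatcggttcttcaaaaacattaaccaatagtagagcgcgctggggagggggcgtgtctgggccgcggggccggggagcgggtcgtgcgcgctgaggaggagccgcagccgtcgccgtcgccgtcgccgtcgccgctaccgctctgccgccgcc
Elavl2, chr5:111202238-111202537, minus strand: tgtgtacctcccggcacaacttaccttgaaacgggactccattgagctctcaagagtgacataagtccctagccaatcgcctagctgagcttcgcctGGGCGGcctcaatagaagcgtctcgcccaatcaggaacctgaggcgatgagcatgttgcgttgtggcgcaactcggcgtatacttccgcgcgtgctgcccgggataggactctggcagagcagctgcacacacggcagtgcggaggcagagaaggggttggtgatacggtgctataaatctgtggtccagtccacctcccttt
Elavl4, chr5:130367614-130367913, minus strand: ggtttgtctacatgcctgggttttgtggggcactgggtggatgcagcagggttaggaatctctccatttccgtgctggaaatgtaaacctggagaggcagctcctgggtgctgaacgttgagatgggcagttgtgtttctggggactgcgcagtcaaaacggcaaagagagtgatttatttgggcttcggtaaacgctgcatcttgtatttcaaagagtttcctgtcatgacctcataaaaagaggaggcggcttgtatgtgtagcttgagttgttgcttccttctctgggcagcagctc
Nova1, chr6:69632388-69632687, minus strand: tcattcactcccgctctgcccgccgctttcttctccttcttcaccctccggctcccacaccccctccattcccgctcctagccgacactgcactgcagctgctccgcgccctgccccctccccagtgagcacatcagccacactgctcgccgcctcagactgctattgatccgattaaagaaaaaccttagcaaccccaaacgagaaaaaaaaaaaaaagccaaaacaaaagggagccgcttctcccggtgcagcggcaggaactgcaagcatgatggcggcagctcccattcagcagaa
Nova2, chr1:87700078-87700377, plus strand: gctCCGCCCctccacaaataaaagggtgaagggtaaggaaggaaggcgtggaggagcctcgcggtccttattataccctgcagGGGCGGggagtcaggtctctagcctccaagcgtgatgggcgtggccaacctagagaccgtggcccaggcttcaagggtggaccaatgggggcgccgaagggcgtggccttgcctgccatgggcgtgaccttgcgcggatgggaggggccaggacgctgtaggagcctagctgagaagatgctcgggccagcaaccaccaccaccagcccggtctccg

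The promoters within a family differed in base composition. The Elavl1 window was 70.7% G and C and held 41 CG pairs, which is 1.1 times the number its base composition gives. The Elavl4 window was 50% G and C and held 7 CG pairs, a ratio of 0.399, and Elavl2 lay between them at 57.3% and 0.771. Elavl3, whose window is not printed, was the richest of the 7 members in G and C. It had 74.3%, with 42 CG pairs and a ratio of 1.03. Rbfox1, also not printed, had 43.7% and a ratio of 0.365. Nova2 was richer in G and C than Nova1 (64.7% against 57.3%) but had the lower ratio (0.583 against 0.746). The median over 33469 rat promoters of the same length was 51.7% G and C and a ratio of 0.392. A GGGCGG box was present in 33.1% of all promoters. It was found once in Elavl2, 2 times in Nova2 and 2 times in Elavl3, and not in Elavl1, Elavl4, Nova1 or Rbfox1. A TATAAA box, present in 14.2% of all promoters, was found in Elavl2 alone among the 7 members. The E-box CANNTG was present in 72.1% of promoters and in all of the 7 except Elavl1 and Nova2, and the cAMP response element TGACGTCA was present in 1.83% and in 0 of the 7. These are matches of letters in 1 window, searched on both strands, and the windows are from a later genome build than the deposited positions.

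The loci lay on 8 chromosomes, and each is given by its start and end in the deposited annotation. Elavl1 was at chr12:4614832-4658955, Elavl2 at chr5:113450575-113577431, Elavl3 at chr8:23081839-23118120 and Elavl4 at chr5:133837476-133920262. Rbfox1 was at chr10:7109378-7481909, Rbfox2 at chr7:118149031-118576610 and Rbfox3 at chr10:107150691-107577371. Nova1 was at chr6:76535096-76660810, Nova2 at chr1:81109547-81131781 and Celf4 at chr18:17442335-17830749. The study's methods name RGSC3.4 as the genome and Rnor_5.0 as the annotation, and the table itself names no build, so it is uncertain which of them these positions belong to.

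Across the 4 groups the members followed several orders of level. Levels are compared here between groups for 1 gene at a time, since normalized counts are not per length. For 8 of the 10 members the highest group mean was in sham cortex. The exceptions were Elavl2 and Elavl3, which were highest in sham thalamus. Elavl2 had a mean of 4502 ± 510 (SD, n = 6) in sham thalamus, 3934 ± 501 in TBI thalamus, 2617 ± 251 in sham cortex and 1937 ± 371 in TBI cortex, and the libraries of TBI thalamus and sham cortex did not overlap. Rbfox3 had the widest range, with 11225 ± 1277 in sham cortex, 9632 ± 799 in TBI cortex, 3118 ± 208 in sham thalamus and 2242 ± 284 in TBI thalamus. Its TBI cortex values did not overlap those of sham thalamus, nor did these overlap those of TBI thalamus. The order of Rbfox1 was the same, from 14333 ± 914 in sham cortex over 11327 ± 1189 in TBI cortex and 8488 ± 1191 in sham thalamus to 5378 ± 445 in TBI thalamus, and each step exceeded the larger SD of its neighbors. Rbfox2 had 3 groups that did not differ beyond their SD (2050 ± 111 in sham cortex, 2048 ± 244 in sham thalamus and 1932 ± 151 in TBI cortex) and a lower one (1540 ± 125 in TBI thalamus), whose libraries all lay under those of TBI cortex. Elavl4 paired by injury and not by area: sham cortex (5093 ± 522) and sham thalamus (4749 ± 793) did not differ beyond their SD, and neither did TBI cortex (3894 ± 745) and TBI thalamus (3569.5 ± 242). Celf4 paired by area, with 13001 ± 1877 and 12818 ± 1314 in sham and TBI cortex against 9276 ± 667 and 9084 ± 1033 in sham and TBI thalamus. Nova1 in TBI cortex (2082 ± 267) and sham thalamus (2026 ± 342) did not differ beyond the SD, with sham cortex above (2714 ± 231) and TBI thalamus below them (1680 ± 101). Nova2 fell into a cortex pair (3610 ± 279 in sham and 3531 ± 401 in TBI rats) and 2 lower groups, 2984 ± 379 in sham and 2490.1 ± 179 in TBI thalamus. Elavl3 stood out in sham thalamus alone (10048 ± 721), while sham cortex (8112 ± 637), TBI thalamus (8037 ± 1030.2) and TBI cortex (7803 ± 355) did not differ beyond their SD. The group means of Elavl1 were closest together, from 1462 ± 174 in sham thalamus over 1545 ± 75.8 in TBI thalamus and 1701 ± 116 in TBI cortex to 1816 ± 71.0 in sham cortex.

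**Figure D1:**
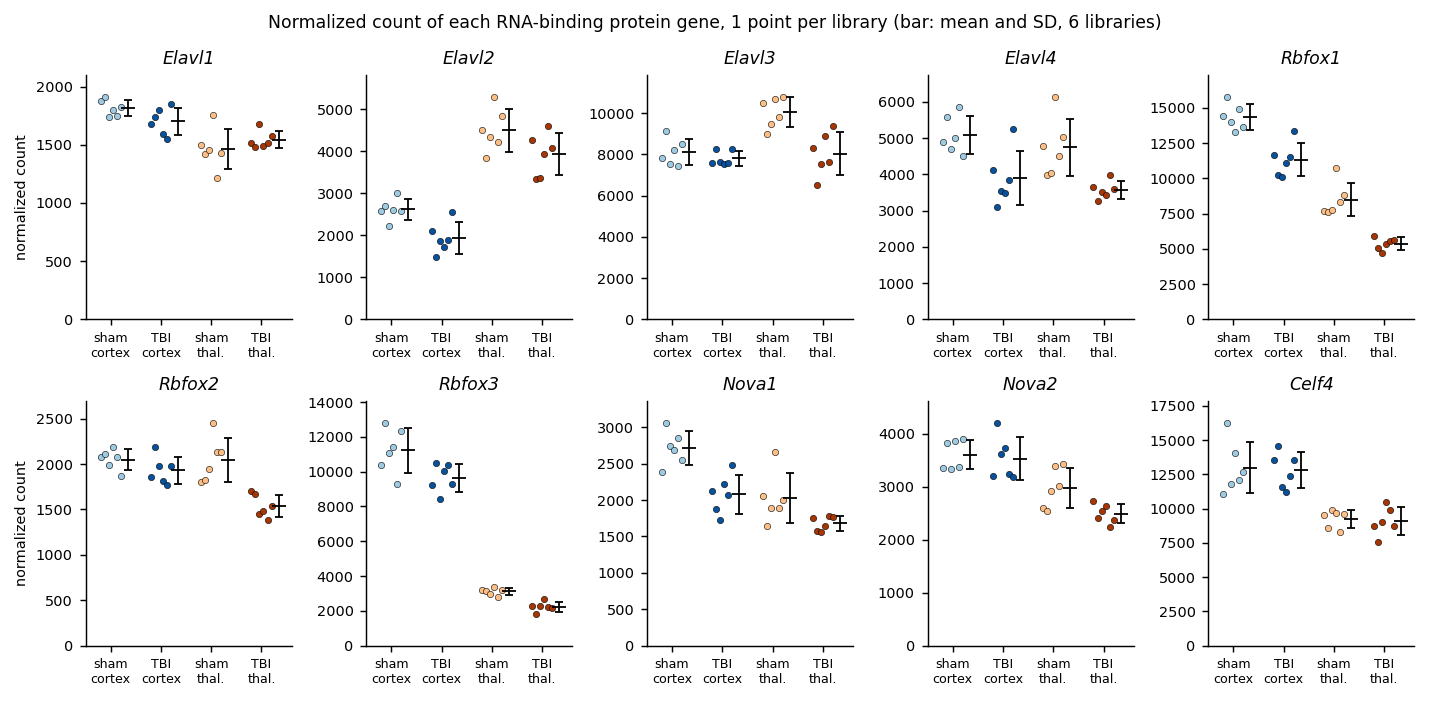
Normalized count (vertical axis, from 0) of each of the 10 genes in the 4 groups, with 1 point per library and a bar for the mean and SD of 6 libraries. Rbfox3 falls from about 11225 in sham cortex to 3118 in sham thalamus, Elavl2 runs the other way, and the TBI thalamus points of Rbfox1, Rbfox2, Rbfox3 and Elavl4 all lie under the sham thalamus points.

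The first comparison asked how the members differed between TBI and sham rats in the perilesional cortex. There, 5 of 10 members were lower after TBI (Elavl2, Elavl4, Rbfox1, Nova1 and Rbfox3) and 0 were higher, at a Benjamini-Hochberg adjusted p under 0.05 by limma. Of all 15493 loci tested, 14.9% were lower and 14.3% were higher. The median log2 fold change was -0.16 over the 10 members and -0.0096 over all loci. Elavl2 was picked by the study on these rats for follow-up, so its fall is not independent evidence. The study reported Elavl2 as unchanged when it was measured by quantitative PCR. Its methods, however, name the assay as one for Elavl1.

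The 4 ELAV-like genes split into a pair that fell and a pair that did not pass the test in the cortex. Elavl2, a neuronal RNA stabilizer, ran from 2229 to 3011 in sham rats with a median of 2599, and from 1479 to 2563 in TBI rats with a median of 1877. It fell by 26.8%, with 5 of 6 TBI libraries under every sham library. Elavl4, the neuronal HuD that binds Gap43 mRNA, ran from 4512 to 5856 in sham rats (median 4947) and from 3103 to 5243 in TBI rats (median 3704). The TBI libraries again lay under all sham libraries in 5 of 6 rats, and Elavl4 fell by 24.3% (log2 fold change -0.40, standard error 0.10, adjusted p = 0.00975). Elavl3 stood apart from these paralogs: sham values of 7457 to 9113 enclosed the TBI values of 7514 to 8264, and its log2 fold change was -0.05 (95% interval -0.17 to 0.06, adjusted p = 0.48). The ubiquitous Elavl1 ran from 1735 to 1912 in sham rats and from 1552 to 1848 in TBI rats, a log2 fold change of -0.10 (95% interval -0.21 to 0.02, adjusted p = 0.183).

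Among the RBFOX genes, Rbfox1, a splicing regulator of neuronal excitability genes, ran from 13293 to 15777 in sham cortex (median 14188) and from 10071 to 13363 in TBI cortex (median 11311). It fell by 21.2% (log2 fold change -0.34, standard error 0.07, adjusted p = 0.00148), and only rat 63 overlapped the sham range. Rbfox3 ran from 9314 to 12791 in sham cortex (median 11259) and from 8421 to 10469 in TBI cortex (median 9661), and 3 of 6 TBI libraries lay under all sham libraries. It fell by 14.0% (log2 fold change -0.22, standard error 0.08, adjusted p = 0.0424), which was near the threshold. Without a filter on low values its adjusted p was 0.0571 and with upper quartile scaling it was 0.0638. The call also ended when TBI rat 22, 45, 52 or 63 or sham rat 32, 34, 38 or 55 was left out, with adjusted p values up to 0.0962. Rbfox2, which is also made outside neurons, had a log2 fold change of -0.09 (95% interval -0.21 to 0.04, adjusted p = 0.274). For this gene 3 of 6 TBI libraries lay under the sham range, and the highest TBI value was level with the highest sham value (2184 in both).

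Of the NOVA genes, Nova1 passed the test in the cortex and Nova2 did not, and the change of their ratio, given with the other ratios, missed the threshold. Nova1 ran from 2392 to 3057 in sham rats (median 2717) and from 1723 to 2486 in TBI rats (median 2097), with 5 of 6 TBI libraries under all sham libraries. It fell by 23.6% (log2 fold change -0.39, standard error 0.08, adjusted p = 0.00283). Nova2 ran from 3334 to 3899.8 in sham rats and from 3186 to 4203 in TBI rats, and its log2 fold change was -0.04 (95% interval -0.19 to 0.12, adjusted p = 0.744). Celf4 ranged from 11091 to 16251 in sham and from 11189 to 14604 in TBI cortex, a log2 fold change of -0.01 (95% interval -0.20 to 0.17, adjusted p = 0.918). In 0 of 10 members were the TBI and sham libraries of the cortex fully apart, whereas 5.45% of all loci tested lay wholly lower after TBI.

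In the ipsilateral thalamus, 7 of 10 members were lower after TBI (Rbfox1, Rbfox3, Rbfox2, Elavl4, Elavl3, Nova1 and Nova2) and 0 were higher, where 20.9% of all 15564 loci tested were lower and 14.5% were higher. With TMM scaling the split over all loci turned, from 2259 higher and 3257 lower to 2796 higher and 2357 lower. The median log2 fold change was -0.29 over the members and -0.02 over all loci. In 4 of 10 members (Rbfox1, Rbfox2, Rbfox3 and Elavl4) every TBI library lay under every sham library, against 10.7% of all loci.

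All 3 RBFOX genes fell in the thalamus. Rbfox1 ran from 7644 to 10727 in sham rats (median 8015) and from 4693 to 5944 in TBI rats (median 5449.9), without overlap. It fell by 36.3% (log2 fold change -0.65, standard error 0.08, adjusted p = 4.58e-05), the largest change of a member in either area. Rbfox3, the NeuN gene, ran from 2813 to 3396 in sham rats (median 3171) and from 1803 to 2689 in TBI rats (median 2262), and it fell by 28.4% (log2 fold change -0.48, standard error 0.08, adjusted p = 0.000325). Rbfox2 ran from 1803 to 2451 in sham rats (median 2039.6) and from 1388 to 1703 in TBI rats (median 1511), and it fell by 24.6% (log2 fold change -0.41, standard error 0.08, adjusted p = 0.00108). For these genes the groups were separated in every rat.

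Of the ELAV-like genes, Elavl4 ran from 3982 to 6143 in sham thalamus (median 4649) and from 3257 to 3977 in TBI thalamus (median 3557), also without overlap. It fell by 24.2% (log2 fold change -0.40, standard error 0.09, adjusted p = 0.00364). Elavl3, which did not pass the test in the cortex, ran from 9002 to 10793 in sham rats (median 10165) and from 6497 to 9353 in TBI rats (median 7973). It fell by 20.4% (log2 fold change -0.33, standard error 0.08, adjusted p = 0.0056), and 5 of 6 TBI libraries lay under all sham libraries. Elavl2 ran from 3832 to 5298 in sham rats and from 3349 to 4606 in TBI rats, and 2 TBI libraries lay under the sham range. Its test was not passed with all 12 libraries, but it was passed without sham rat 32 (adjusted p = 0.0484) or without TBI rat 56 (adjusted p = 0.0449). Elavl1 was the only member of the 10 with a positive log2 fold change in the thalamus, 0.09 (95% interval -0.07 to 0.24, adjusted p = 0.386).

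Nova1 ran from 1649 to 2664 in sham thalamus (median 1951) and from 1568 to 1788 in TBI thalamus (median 1694), and Nova2 from 2536 to 3424 (median 2973) and from 2249.9 to 2726 (median 2482). For both genes 3 of 6 TBI libraries lay under all sham libraries. The log2 fold change was -0.26 for Nova1 (standard error 0.09, adjusted p = 0.0394) and -0.25 for Nova2 (standard error 0.08, adjusted p = 0.0219). Both calls depended on the processing: with TMM scaling the adjusted p was 0.0861 for Nova1 and 0.0559 for Nova2, and with edgeR on recovered fragments it was 0.0806 and 0.0522. The Nova1 call also ended without TBI rat 24, 45 or 52 or sham rat 26, 38 or 55, and that of Nova2 without sham rat 55. Celf4 had a log2 fold change of -0.03 (95% interval -0.19 to 0.12, adjusted p = 0.754), and its TBI values of 7534 to 10498 reached beyond both ends of the sham range of 8311 to 9901.

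**Figure D2:**
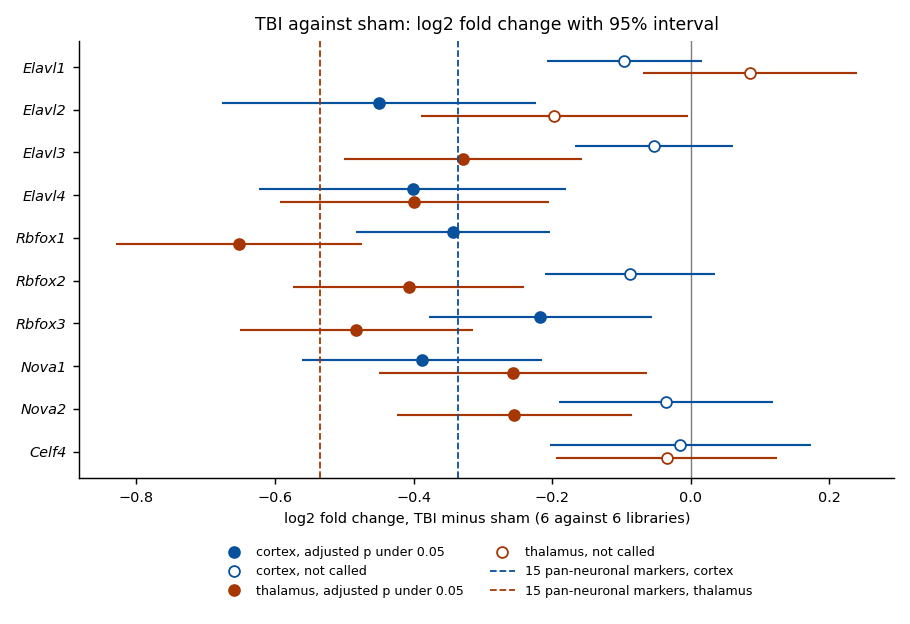
Log2 fold change of TBI against sham (horizontal axis) with its 95% interval for each gene, in cortex (blue) and thalamus (orange). Filled points passed an adjusted p of 0.05, and dashed lines show the mean change of 15 pan-neuronal markers (-0.34 in cortex, -0.53 in thalamus). All filled points lie to the left of 0.

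The question whether injury acted differently in thalamus and cortex was tested by the interaction of injury and area, fitted to all 24 libraries. Of the 10 members, 1 passed (Rbfox2) in the direction of a lower value in thalamus and 0 in the other direction, against 4.54% and 2.72% of all 15678 loci tested. For Rbfox2 the log2 fold change in thalamus minus that in cortex was -0.32 (standard error 0.10, adjusted p = 0.0468). This call ended with edgeR (adjusted p = 0.0731), with upper quartile scaling (0.0625), without a filter on low values (0.0617), with scaling to pan-neuronal markers (0.477, where the difference was -0.12), and when any of rats 24, 34, 38, 45, 50, 52, 55, 56 and 63 was left out. The other 2 RBFOX genes had differences of the same sign, -0.31 for Rbfox1 (adjusted p = 0.0898) and -0.27 for Rbfox3 (adjusted p = 0.163), and so had Elavl3 (-0.28, adjusted p = 0.0913) and Nova2 (-0.22, adjusted p = 0.25). Elavl4 had a difference of 0.0023 (95% interval -0.30 to 0.31, adjusted p = 0.995), and Nova1 of 0.13 (adjusted p = 0.589). Elavl3 and Nova2 passed the test in the thalamus and not in the cortex, and Elavl2 in the cortex and not in the thalamus, but for none of these 3 was a difference between the areas shown (Elavl2 0.25, adjusted p = 0.329). Without rat 32, however, the difference for Elavl3 passed, at -0.34 (adjusted p = 0.0349).

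The members differed between the areas themselves in both treatment groups. In sham rats, 6 of 10 were lower in thalamus than in cortex and 2 were higher, against 27.9% and 33.5% of all loci. In TBI rats, 6 were lower and 1 was higher, against 27.9% and 32.7%. Rbfox3 showed the largest difference, with a log2 fold change of -1.84 in sham rats (standard error 0.08, adjusted p = 2.12e-16) and -2.11 in TBI rats (adjusted p = 1.71e-17). Rbfox1 was also lower in thalamus, with -0.76 in sham rats (adjusted p = 3.95e-09) and -1.07 in TBI rats (adjusted p = 7.06e-12). Rbfox2, the third RBFOX gene, had a difference of -0.0079 in sham rats (95% interval -0.15 to 0.13) and of -0.33 in TBI rats (adjusted p = 0.00023). For Celf4 the log2 fold change was -0.48 in sham and -0.50 in TBI rats, for Nova1 -0.43 and -0.30, and for Nova2 -0.28 and -0.50, all past the threshold.

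Elavl2 ran against this direction, with a log2 fold change of 0.78 in sham rats (standard error 0.10, adjusted p = 4.42e-07) and of 1.03 in TBI rats (adjusted p = 4.03e-09), and it was higher in the thalamus of all 6 rats of both groups. Elavl3 was higher in the thalamus of sham rats, with 0.31 (adjusted p = 0.000443), but in TBI rats the difference was 0.03 (adjusted p = 0.7). Elavl4 did not pass the test in either group (-0.11 in both). Elavl1 was lower in the thalamus of sham rats, with -0.32 (adjusted p = 8.91e-05), and its value in TBI rats was -0.14 (adjusted p = 0.0607). With the rat as a block, which accounts for the pairing of both areas in 1 animal, the latter passed (adjusted p = 0.0423). In sham rats the libraries of both areas were fully apart for 4 members: Rbfox1, Rbfox3 and Celf4 were lower (19.1% of all loci) and Elavl2 was higher (23.7%). In TBI rats they were apart for 6, with Rbfox1, Rbfox2, Rbfox3, Nova2 and Celf4 lower (16.6%) and Elavl2 higher (19.5%). Of 4 excitatory neuron markers, 3 were lower and 1 (Slc17a6, the vesicular glutamate transporter of thalamic neurons) was higher in the thalamus of sham rats, and the part of neuron type in these differences was not tested.

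**Figure D3:**
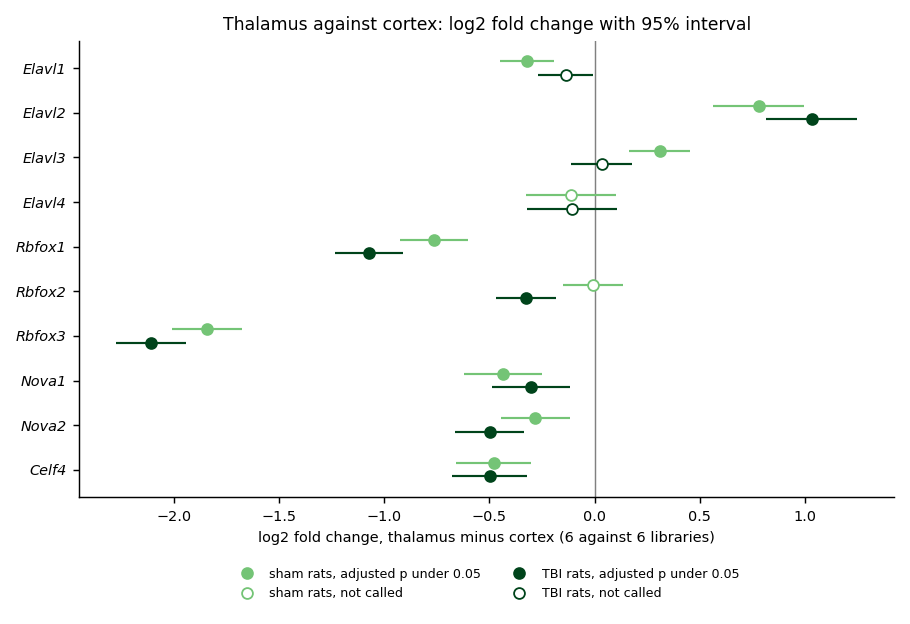
Log2 fold change of thalamus against cortex (horizontal axis) with its 95% interval for each gene in sham rats (light green) and TBI rats (dark green), 6 libraries in each group. Rbfox3 lies farthest to the left at -1.84 and -2.11, and Elavl2 is the 1 gene to the right of 0 with filled points in both groups.

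A ratio of 2 members of a family within a library does not depend on the scaling between libraries. It describes the balance of the family in the tissue as a whole, not within a cell. Elavl1 and Rbfox2 are also made outside neurons, and neuronal markers fell while microglia markers rose. The part of cell numbers in the changes of these ratios was not tested. The 10 pairs within the ELAV-like, RBFOX and NOVA families were compared between TBI and sham rats in both areas by exact two-sided permutation tests of the 6 TBI against the 6 sham libraries, adjusted over 20 tests. The smallest p that these tests can give is 0.0022. Of the 20 ratios, 5 passed. In the cortex the ratio of Elavl1 to Elavl2 rose by 0.35 on the log2 scale, from -0.52 ± 0.14 in sham rats to -0.17 ± 0.25 in TBI rats (exact permutation p = 0.0065, adjusted p = 0.0325). The ratio of Elavl2 to Elavl3 fell by 0.40, from -1.63 ± 0.17 to -2.03 ± 0.27 (exact permutation p = 0.0087, adjusted p = 0.0346). For both ratios, 5 of 6 TBI libraries lay beyond every sham library.

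In the thalamus the ratio of Elavl1 to Elavl4 rose by 0.48, from -1.69 ± 0.18 to -1.21 ± 0.11, and that of Elavl1 to Elavl3 by 0.41, from -2.79 ± 0.16 to -2.37 ± 0.19. In both, all 6 TBI libraries lay above all sham libraries (exact permutation p = 0.0022, adjusted p = 0.0216). The ratio of Rbfox1 to Rbfox2 fell by 0.24, from 2.05 ± 0.06 to 1.80 ± 0.14, with 5 of 6 TBI libraries under the sham range (exact permutation p = 0.0065, adjusted p = 0.0325). So 3 of the 5 ratios that passed set the ubiquitous Elavl1 against a neuronal paralog, and in all 3 it gained on that paralog. These ratios share members, and Elavl1 itself passed the injury test in neither area. Its other ratios did not pass. They changed by -0.04 to Elavl3 and 0.30 to Elavl4 in the cortex, and by 0.28 to Elavl2 in the thalamus. The ratio of Elavl2 to Elavl4 did not pass in either area. In the cortex its change was -0.05 (exact permutation p = 0.329), and in the thalamus 0.20, with 4 of 6 TBI libraries above all sham libraries (exact permutation p = 0.0195, adjusted p = 0.0512). The difference in the NOVA ratio was -0.35 in the cortex (exact permutation p = 0.0281, adjusted p = 0.0512) and -0.0022 in the thalamus (exact permutation p = 0.961). When a library was left out, the calls on Elavl1 to Elavl3 and Elavl1 to Elavl4 in the thalamus held in all 24 cases. Only the 6 TBI and 6 sham libraries of its own area enter a ratio. Leaving out a library of the other area changed only the adjustment. The calls ended in 8 cases for Elavl1 to Elavl2 and in 10 for Elavl2 to Elavl3 in the cortex. For Rbfox1 to Rbfox2 in the thalamus the call ended in 8. All of these cases left out a library of the ratio's own area, where the smallest p that 5 against 6 libraries can give is 0.0043. Without TBI cortex rat 63, 11 of the 20 ratios passed, and without sham cortex rat 55, 10 did.

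**Figure D4:**
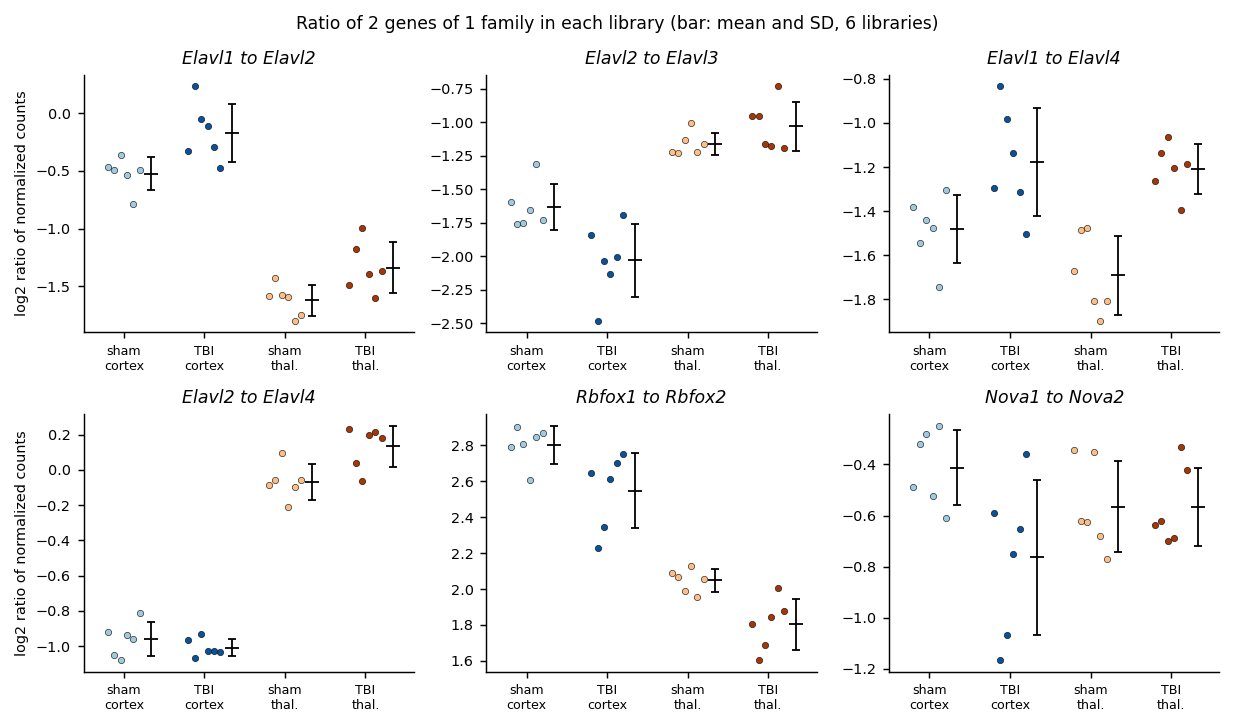
Log2 ratio of the normalized counts of 2 genes of a family (vertical axis) in each library of the 4 groups, with a bar for the mean and SD of 6 libraries. In the thalamus the Elavl1 to Elavl4 ratio of all 6 TBI libraries lies above all sham libraries, while the cortex ratio of Elavl2 to Elavl4 has means of -0.96 in sham and -1.01 in TBI rats.

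Because pan-neuronal markers fell after TBI, each member was also expressed relative to them. Their geometric mean ran from 26034 to 27574 in sham cortex and from 19275 to 23701 in TBI cortex, and from 25491 to 29586 in sham thalamus and from 16155 to 20361 in TBI thalamus, without overlap in either area. Scaling the libraries to this level moved the median log2 fold change of all loci to 0.33 in the cortex and to 0.51 in the thalamus, so values on this scale have to be read against those shifts. The markers themselves fell unequally. In the cortex their log2 fold changes ran from -0.91 (Nefh) to -0.05 (Uchl1), with a mean of -0.34 and a median of -0.24. In the thalamus they ran from -1.43 (Nefh) to -0.06 (Map2), with a mean of -0.53 and a median of -0.47. Without this scaling, Elavl2, Elavl4, Nova1 and Rbfox1 in the cortex and Rbfox1 and Rbfox3 in the thalamus fell by more than the median marker. The other members did not. On the scale of the marker mean, 0 members passed as lower in either area. In the cortex the log2 fold changes of the 5 members called lower before were -0.11 for Elavl2 (adjusted p = 0.331), -0.07 for Elavl4 (0.557), -0.0078 for Rbfox1 (0.917), -0.05 for Nova1 (0.548) and 0.12 for Rbfox3 (0.177). The other 5 rose by 0.24 (Elavl1) to 0.32 (Celf4), which is at or under the shift of all loci. In the thalamus Rbfox1 (-0.12, adjusted p = 0.0887), Rbfox3 (0.05, 0.577), Rbfox2 (0.13, 0.149) and Elavl4 (0.14, 0.153) did not pass, and the other 6 rose by 0.21 (Elavl3) to 0.62 (Elavl1). Only Elavl1 exceeded the shift of all loci there. The part of neuron number in the falls of the members was not tested.

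Within groups the members did not vary as 1 unit. After the group means were removed, the Pearson correlation over the 24 libraries was 0.88 between Elavl2 and Elavl4, 0.85 between Rbfox1 and Nova1, 0.83 between Elavl4 and Rbfox1, and 0.82 between Elavl4 and Nova1. It was 0.65 between Rbfox3 and Celf4, 0.63 between Elavl3 and Rbfox3, and 0.63 between Rbfox2 and Nova2. Other pairs ran from -0.14 (Rbfox2 and Rbfox3, and Elavl2 and Nova2) over -0.0012 (Elavl4 and Rbfox3) and 0.12 (the paralogs Nova1 and Nova2) to moderate values such as 0.44 (Rbfox1 and Rbfox2) and 0.42 (Elavl3 and Nova2). With the neuronal marker level it was highest for Rbfox1 (0.67) and lowest for Elavl1 (-0.11). These correlations are descriptions, since the libraries share scaling and both areas share rats. Elavl2, Elavl4, Rbfox1 and Nova1, the 4 genes that varied together within groups, were also the 4 with the largest falls in the cortex.

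Single rats show this pattern. In TBI cortex, rat 24 had the lowest value of Elavl2 (1479) and Elavl4 (3103) but the highest of Rbfox2 (2184), Rbfox3 (10469), Nova2 (4203) and Celf4 (14604). Rat 63 was the reverse, with the highest values of 6 members, among them Elavl2 (2563), Elavl4 (5243), Rbfox1 (13363) and Nova1 (2486), and the lowest of Nova2 (3186). In the thalamus, TBI rat 24 was lowest for 6 members and sham rat 38 was highest for 7, while sham rat 32 was lowest for 6. The same sham rat 32 was highest for 6 members in the cortex. Without rat 63 the cortex log2 fold change of Elavl4 was -0.49, and it lay between that and -0.34 for every choice of 1 library to leave out.

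**Figure D5:**
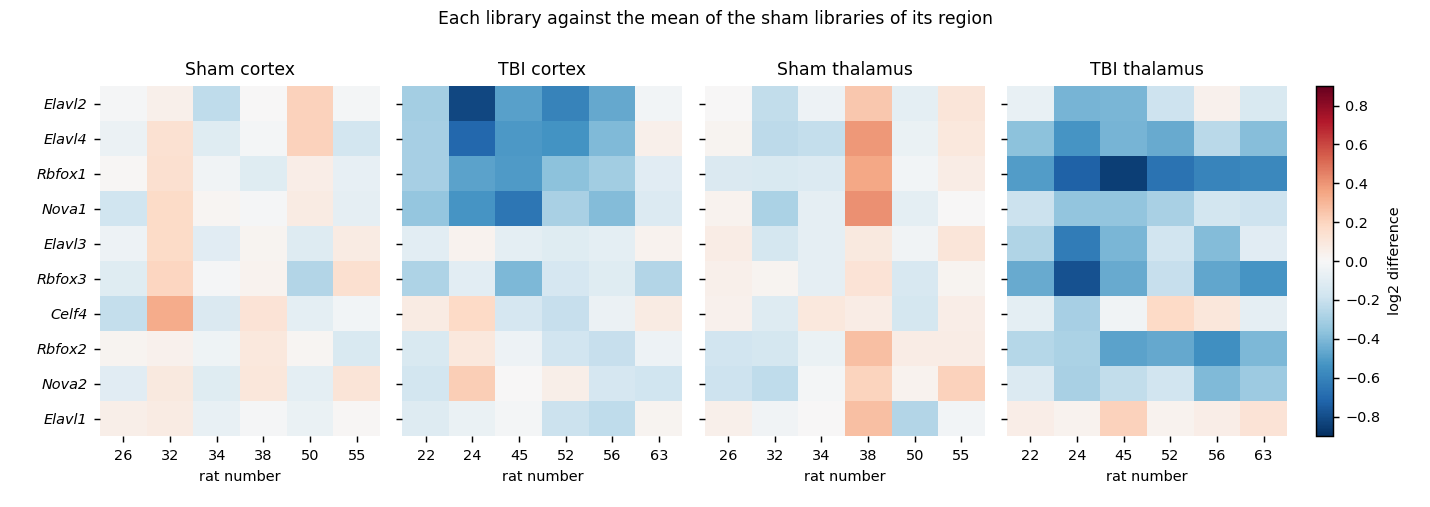
Log2 difference (color) of each gene in each library from the mean of the sham libraries of its area, with rats as columns and genes as rows (blue is lower, red is higher). The upper 4 rows (Elavl2, Elavl4, Rbfox1, Nova1) are clearly blue in all TBI cortex rats except rat 63, which is pale, and Rbfox1 and Rbfox3 are blue in all 6 TBI thalamus libraries.

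Other genes of RNA regulation changed in both directions. Their counts have to be read against all loci tested, of which 14.9% were lower and 14.3% higher in TBI cortex, against 20.9% lower and 14.5% higher in TBI thalamus. Of the 5 other CELF genes, 2 were lower in TBI cortex (Celf1, -0.15, and Celf2, -0.15 on the log2 scale), and in TBI thalamus Celf3 (-0.20) and Celf5 (-0.14) were lower and Celf6 (0.25) was higher. Of 17 other splicing regulators tested, 1 rose and 3 fell in the cortex, and 2 rose and 5 fell in the thalamus, shares that in the cortex are near or under those of all loci. Ptbp1, the polypyrimidine tract protein that neurons switch off as they mature, rose in both areas, by 0.50 in the cortex (adjusted p = 0.00019) and by 0.41 in the thalamus (adjusted p = 0.00374). Its neuronal paralog Ptbp2 fell in the cortex (-0.20), as did Mbnl2 (-0.25), and Khdrbs3 fell in both areas (-0.27 and -0.23). In the thalamus Ptbp3 rose by 0.63, and Srrm4 (-0.34) and Srrm3 (-0.27), which promote the inclusion of neuronal microexons, fell. Of 24 regulators of mRNA transport and translation, 3 rose and 5 fell in the cortex, and 4 rose and 4 fell in the thalamus, shares not far from those of all loci. The rises were led by the Zfp36 family, which binds AU-rich elements and destabilizes the mRNA: Zfp36 rose by 0.69 in the cortex and 0.84 in the thalamus, Zfp36l1 by 0.38 and 0.44, and Zfp36l2 by 0.66 in the thalamus. Stau2, which carries mRNA into dendrites, fell in both areas (-0.35 and -0.33), and so did Cpeb3 (-0.27 and -0.33).

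A list of 13 mRNAs that are known to be bound by ELAV-like proteins had 6 members lower and 1 higher in TBI cortex, with a median log2 fold change of -0.27, and 7 lower and 2 higher in TBI thalamus, with a median of -0.26. Nova1 is on this list as well as a member. The matching medians for TBI cortex were -0.24 over the pan-neuronal markers and -0.0096 over all loci. Those for TBI thalamus were -0.47 and -0.02. Nrn1, which promotes neurite growth, fell by 0.58 on the log2 scale in the cortex and by 0.40 in the thalamus. Bdnf fell in the cortex (-0.49), and in the thalamus its value was 0.06 and did not pass. Ache (-0.41) fell in the thalamus. Myc rose in both areas, by 0.60 and 0.77, and Marcks rose by 0.52 in the thalamus. The difference between areas, which passed as lower in 4.54% and as higher in 2.72% of all loci, passed for 1 of 5 CELF genes (Celf3, -0.35), 0 of 17 splicing regulators, 1 of 24 transport and translation regulators and 3 of the 13 ELAV-bound mRNAs, among them Bdnf (0.56). Microglia and astrocyte markers rose in the same libraries, and their part in the rises of Ptbp1, Zfp36 and Myc was not tested. Pan-neuronal markers fell in them, and the part of neuron number in the falls of ELAV-bound mRNAs was not tested either.

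For each member, the loci whose log2 level followed it most closely over the 24 libraries were found by Pearson correlation, which the difference between areas dominates. Rbfox3 was followed most closely by Fbxo41 (r = 0.99) and the joined locus of Gp1bb and Sept5 (0.99), Elavl2 by Tspan13 (0.98) and Nap1l5 (0.98), Rbfox1 by NKIRAS1 (0.98) and Slitrk1 (0.98), and Nova2 by Pom121 (0.98) and Slit3 (0.94). Elavl4 was followed by Serinc1 (0.97) and Rab6a (0.96), Nova1 by FAM49B (0.95) and Camta1 (0.95), Rbfox2 by Ptprj (0.94) and Myh10 (0.91), and Celf4 by Numbl (0.93) and Grik5 (0.93). The closest neighbors of Elavl3 were the unnamed gene ENSRNOG00000050398 (0.90) and the joined locus of Mon1b and Syce1l (0.90). Elavl1 had the least close ones, Ctcf (0.86) and Zmynd11 (0.86).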

How the data were processed

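Polyadenylated RNA of 24 libraries was made into stranded libraries and sequenced. The authors aligned the reads with TopHat2 2.0.11 and Bowtie2 2.2.2, assembled transcripts with Cufflinks 2.2.1 guided by the Ensembl annotation, and deposited 1 table of signal values, fragments per locus scaled by a factor of each library. Per library, low values were whole multiples of 1 step (tolerance 0.1 of a step), and dividing by it recovered the fragments used for edgeR.

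TBI and sham were compared within each area by limma 3.58.1 (R 4.3.3, lmFit and eBayes with trend) on log2(normalized count + 1), a scale that understates changes of low genes, for named loci with a mean of at least 10. P-values were adjusted over all of them by the Benjamini-Hochberg method with a threshold of 0.05. The 15693 loci without a name (1.90% to 2.23% of values) were left out. Interaction and area contrasts used all 24 libraries without a block, and the block on rat was an alternative. Numbers pair the areas of 1 rat: deviations from group means correlated with a median of 0.187 within rats and -0.033 between rats. Family ratios were tested by exact permutation (scipy 1.17.1). All members are named, with at most 4 called genes of each other list by size of change and the 2 closest loci per member. One gene that this rule names is not reported here. The members and lists were chosen with earlier results of these data known. Alternatives were TMM, upper quartile and neuronal scaling, other filters and pseudocounts (0.1 and 5), limma-voom, edgeR 4.0.16, 1 fit of all libraries, a threshold of 0.01 and leaving out each library or rat. On simulated data with 0.6 on the log2 scale set, the fit recovered 77% of changed loci in the cortex, 81% in the thalamus and 48% for the interaction. Figures were drawn with matplotlib 3.10.9.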

Additional observations from a re-analysis of the deposited data

Results flagged for a closer look

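For 1 of 10 members the difference between the areas passed the test, where 4.54% of all loci passed as lower and 2.72% as higher. The TBI effect on Rbfox2 was lower in thalamus than in cortex, with a difference of -0.32 on the log2 scale (limma interaction, Benjamini-Hochberg adjusted p = 0.0468). In the thalamus all 6 TBI libraries lay under the sham range of Rbfox2, and in the cortex 3 of 6 did. Over the rats left out in turn the difference ran from -0.36 to -0.28, but the call ended in 9 of 12 cases. Scaled to pan-neuronal markers it was -0.12 (adjusted p = 0.477). None of the 40 group values of the members (10 genes in 4 groups) held a library that stood apart from the other 5 by Dixon's test, which chance alone passes in about 1 of 20 groups.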

How the results depend on the processing

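The members called under the main settings in the cortex (5), in the thalamus (7) and between areas (8 and 7) kept to within 1.5 times those counts under every setting run, but scaled to pan-neuronal markers the calls within areas were all higher. That scaling called 10882 loci in the cortex, 13001 in the thalamus and 1806 for the interaction, with 2 members in the latter (Elavl1 and Elavl2). It turned the cortex values of Elavl1 to 0.24, Elavl3 to 0.28, Rbfox2 to 0.25, Rbfox3 to 0.12, Nova2 to 0.30 and Celf4 to 0.32. In the thalamus it turned Elavl2 to 0.34, Elavl3 to 0.21, Elavl4 to 0.14, Rbfox2 to 0.13, Rbfox3 to 0.051, Nova1 to 0.28, Nova2 to 0.28 and Celf4 to 0.50, in the interaction Celf4 to 0.18, and between areas in TBI rats Elavl1 to 0.026 and Elavl4 to 0.056. A threshold of 0.01 left 2436, 3429 and 404 loci and 0 members for the interaction, and 0 members were left there too with upper quartile scaling, without a filter and with edgeR. Celf4, near 0 throughout, turned with upper quartile scaling in the cortex (0.0041), the thalamus (0.0056) and the interaction (0.0059), with TMM in the thalamus (0.014), and with edgeR in the thalamus (0.022) and the interaction (0.030). The cause of these turns was not tested beyond the scaling itself.

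With the rat as a replicate block, 504 loci passed as higher and 797 as lower for the interaction in place of 427 and 711, Rbfox2 remained the 1 member called (adjusted p = 0.0301), and Elavl1 between the areas of TBI rats became the only other call to change. With 1 rat left out, the interaction called 690 to 1204 loci and 0 to 2 members, and with 1 library left out, 3 to 11 family ratios passed. The sign turned for Celf4 in the cortex (-0.058 to 0.052), the thalamus (-0.078 to 0.017) and the interaction (-0.11 to 0.071), Elavl4 in the interaction (-0.073 to 0.089), Rbfox2 between areas in sham rats (-0.048 to 0.033), Elavl3 between areas in TBI rats (-0.0081 to 0.11), and in the thalamus the ratios of Rbfox2 to Rbfox3 (-0.0095 to 0.14) and Nova1 to Nova2 (-0.049 to 0.042). Depth limits loci with few fragments more than the members, whose lowest normalized count was 1211.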
